A study of Mus musculus with 118 samples.

Results

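The boundaries of RING1B and SUZ12 domains were compared in untreated mouse embryonic stem cells (ESCs), a pluripotent cell line grown in culture. A domain is here a peak, a stretch of the genome where calibrated ChIP-seq (cChIP-seq) recovered more DNA with an antibody than Input, the chromatin before immunoprecipitation. Members were pairs of 1 RING1B peak and 1 SUZ12 peak, chosen by an overlap of at least 1 bp with each other and with no other peak of the opposite list. There were 6717 such pairs among 6971 groups of connected peaks, and they held 6717 of 18643 RING1B peaks (36.0%) and 6717 of 7438 SUZ12 peaks (90.3%). The series holds 118 samples in 42 groups, and 12 of these are the RING1B, SUZ12 and PCGF2 samples behind the lists used here. Input samples, which the authors used as controls in peak calling, are not counted among the 12. RING1B was profiled in 3 untreated PRC1CPM samples, SUZ12 in 3 untreated PRC1CPM and 3 untreated PRC1CKO samples, and PCGF2 in 3 untreated PRC1CPM samples. RING1B peaks of PRC1CKO cells, from outside these samples, also shaped the RING1B list, since the authors kept peaks found in both lines that lost signal on tamoxifen in PRC1CKO cells. PRC1CPM cells carry the catalytic mutations Ring1aI50A/D53K, the convertible allele Ring1b(WT->I53A/D56K)fl/fl and a Rosa26::ERT2-Cre transgene, whereas PRC1CKO cells are Ring1a-/- and Ring1bfl/fl with the same Rosa26::ERT2-Cre. Cre in both lines acts only on tamoxifen, which these samples did not receive, so that RING1B was intact while RING1A, its paralogue, was inactive or missing in every sample. Each line is 1 clone of E14 ESCs (clone 41 and clone B9). The lists hold positions alone, so that the identity of the cells could not be checked on marker genes and no replicate, peak height or depth stood behind an edge.

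RING1B or RING1A, together with a PCGF protein, forms the catalytic core of Polycomb repressive complex 1 (PRC1), which places ubiquitin on histone H2A (H2AK119ub1). SUZ12 is a core subunit of Polycomb repressive complex 2 (PRC2), which methylates histone H3 (H3K27me3). In ESCs both complexes gather at CpG islands, promoter regions rich in unmethylated CpG dinucleotides, and most densely at silent genes that direct development. Canonical PRC1, which contains PCGF2, binds H3K27me3 through its CBX subunit, whereas variant PRC1 lacks CBX and can reach CpG islands without H3K27me3.

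The pairs covered most SUZ12 peaks and the wide end of the RING1B list. The median RING1B peak of a pair spanned 2844 bp, whereas the median of the 11569 RING1B peaks (62.1%) without SUZ12 was 1084 bp. A further 254 groups joined more than 2 peaks and took up 357 RING1B and 440 SUZ12 peaks, and 281 SUZ12 peaks (3.78%) touched no RING1B peak. Just inside the threshold, the smallest overlap was 25 bp, at Lats2, a kinase of the Hippo pathway, and the next smallest were 56 and 65 bp. Just outside it, the closest peaks that did not overlap were 14, 18 and 37 bp apart. Few RING1B peaks were near misses, since 96 of the 11569 without SUZ12 (0.830%) lay within 1 kb of a SUZ12 peak.

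Sequences of 3 pairs are printed to show what each factor covered alone. In these pairs RING1B reached further upstream of the transcription start site (TSS) and SUZ12 reached further downstream, an arrangement whose frequency is given further on. The pairs were picked after the values had been seen, as the nearest to the medians of all pairs in CpG content among 11 candidate pairs of listed genes without annotated exons in the windows. All bases were read from RefSeq assembly GRCm38.p6 (mm10), are written 5′ to 3′ on the strand of the gene, and have CpG dinucleotides in capitals. The windows upstream of each TSS lay outside curated RefSeq transcripts and the windows downstream lay in an intron of the named gene.

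Fgf18 encodes a secreted fibroblast growth factor and lies on the minus strand. RING1B covered chr11:33144657-33149286 and SUZ12 covered chr11:33143756-33148568, so that RING1B extended 718 bp further upstream and SUZ12 extended 901 bp further downstream. The windows of 200 bases were chr11:33148569-33148768 in sequence under RING1B alone, chr11:33147401-33147600 under both and chr11:33144457-33144656 under SUZ12 alone. They held 4, 32 and 1 CpG dinucleotides.
Fgf18, RING1B-only sequence upstream: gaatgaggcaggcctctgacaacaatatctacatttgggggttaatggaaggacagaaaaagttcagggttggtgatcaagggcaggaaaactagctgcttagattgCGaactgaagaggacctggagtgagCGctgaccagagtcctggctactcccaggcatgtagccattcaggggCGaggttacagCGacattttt
Fgf18, shared sequence next to the TSS: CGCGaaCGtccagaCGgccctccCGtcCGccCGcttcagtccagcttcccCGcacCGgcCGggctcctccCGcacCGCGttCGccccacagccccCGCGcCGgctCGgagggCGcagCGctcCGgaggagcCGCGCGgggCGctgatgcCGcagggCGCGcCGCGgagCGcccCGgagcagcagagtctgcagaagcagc
Fgf18, SUZ12-only sequence downstream: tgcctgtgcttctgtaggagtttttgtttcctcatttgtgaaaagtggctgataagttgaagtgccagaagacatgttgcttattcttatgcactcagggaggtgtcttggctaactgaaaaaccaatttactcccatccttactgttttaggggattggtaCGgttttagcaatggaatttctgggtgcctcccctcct

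Foxp4 encodes a forkhead transcription factor and is also on the minus strand. Its RING1B peak at chr17:47920418-47926569 extended 1349 bp beyond SUZ12 upstream, and its SUZ12 peak at chr17:47920077-47925220 extended 341 bp beyond RING1B downstream. The windows were chr17:47925221-47925420, chr17:47924633-47924832 and chr17:47920218-47920417, with 13, 23 and 3 CpG dinucleotides. Here the RING1B-only window was nearer in CpG content to the shared window than at Fgf18.
Foxp4, RING1B-only sequence upstream: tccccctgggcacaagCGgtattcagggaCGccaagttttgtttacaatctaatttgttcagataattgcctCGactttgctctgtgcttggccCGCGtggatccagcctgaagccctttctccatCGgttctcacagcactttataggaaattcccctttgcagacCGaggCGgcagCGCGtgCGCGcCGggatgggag
Foxp4, shared sequence next to the TSS: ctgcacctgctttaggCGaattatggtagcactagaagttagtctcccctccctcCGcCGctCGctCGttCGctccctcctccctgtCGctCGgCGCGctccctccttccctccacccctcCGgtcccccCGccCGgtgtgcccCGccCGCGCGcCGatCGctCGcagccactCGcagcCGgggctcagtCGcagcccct
Foxp4, SUZ12-only sequence downstream: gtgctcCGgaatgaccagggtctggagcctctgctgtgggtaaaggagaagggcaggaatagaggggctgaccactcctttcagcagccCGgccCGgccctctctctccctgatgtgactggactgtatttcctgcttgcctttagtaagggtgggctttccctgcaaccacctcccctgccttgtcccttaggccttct

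Cdkn1b encodes p27, an inhibitor of the cell cycle, and is on the plus strand. RING1B at chr6:134915912-134922264 extended 985 bp beyond SUZ12 upstream, and SUZ12 at chr6:134916897-134922502 extended 238 bp beyond RING1B downstream. The windows were chr6:134916697-134916896, chr6:134920201-134920400 and chr6:134922265-134922464, with 7, 27 and 3 CpG dinucleotides. In all 3 pairs the shared window was the richest in CpG and the SUZ12-only window the poorest. The shared windows were placed next to the TSS and were richer in CpG than the whole shared sequence of their pairs, given further on.
Cdkn1b, RING1B-only sequence upstream: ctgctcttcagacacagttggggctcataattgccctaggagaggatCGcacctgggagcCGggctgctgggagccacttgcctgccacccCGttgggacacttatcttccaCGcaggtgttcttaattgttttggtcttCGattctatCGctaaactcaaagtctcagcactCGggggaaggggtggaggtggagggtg
Cdkn1b, shared sequence next to the TSS: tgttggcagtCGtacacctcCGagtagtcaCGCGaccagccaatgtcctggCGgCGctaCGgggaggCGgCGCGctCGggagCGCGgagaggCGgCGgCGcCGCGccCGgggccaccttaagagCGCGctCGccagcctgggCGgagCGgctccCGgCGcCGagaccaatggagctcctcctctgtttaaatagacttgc
Cdkn1b, SUZ12-only sequence downstream: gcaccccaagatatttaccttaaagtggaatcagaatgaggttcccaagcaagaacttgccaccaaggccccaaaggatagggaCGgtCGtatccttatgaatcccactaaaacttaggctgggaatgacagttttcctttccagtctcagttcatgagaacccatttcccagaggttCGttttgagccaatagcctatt

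Rfx4, which encodes a transcription factor of the developing brain, is shown as a pair with matching edges. RING1B at chr10:84752651-84763173 and SUZ12 at chr10:84752663-84763190 began 12 bp apart and ended 17 bp apart. The window chr10:84752563-84752762 crosses both upstream edges on the plus strand, lies outside curated transcripts and held 2 CpG dinucleotides.
Rfx4, across the upstream edges: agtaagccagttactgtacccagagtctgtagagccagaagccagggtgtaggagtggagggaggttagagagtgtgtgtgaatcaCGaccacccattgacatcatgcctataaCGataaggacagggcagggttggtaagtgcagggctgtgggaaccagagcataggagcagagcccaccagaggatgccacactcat

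Across the pairs, each factor covered most of the median peak of the other, but a minority of pairs matched closely over both peaks. The median RING1B peak was covered by SUZ12 over 93.0% of its length (95% interval of the median 92.3 to 93.7%), and the median SUZ12 peak was covered by RING1B over 91.3% (90.8 to 91.8%). Intervals of medians are from order statistics and intervals of shares are Wilson intervals. Both take each peak as independent and hold no error other than that of counting. Since pairs were chosen by overlap, these values describe the pairs and were not tested. Of all pairs, 5545 (82.6%) shared at least 50% of each peak and 1378 (20.5%) shared at least 90% of each. The widths of the peaks followed each other, with medians of 2844 bp for RING1B and 2797 bp for SUZ12 and a Pearson r of 0.82 between log2 widths over 6717 pairs (Spearman rho 0.83), given as a description since paired peaks share their locus.

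Edges rarely coincided to the base, but neither factor was the wider in general. RING1B reached further at 6611 of 13434 edges and SUZ12 at 6804, and 19 edges were equal. No pair had both edges equal (0 of 6717, with an upper limit of 0.0572%). The median absolute distance between edges was 356 bp (345 to 367), which is within the average fragment size of 0.5 kb to which chromatin was sheared. Within 100 bp lay 20.9% of edges, within 500 bp 60.4% and within 1 kb 84.3%. Midpoints were a median of 260 bp apart (252 to 271). Peaks were staggered in 2722 pairs (40.5%), RING1B lay inside SUZ12 in 2047 (30.5%), and SUZ12 lay inside RING1B in 1948 (29.0%). Distances at the left and right edge of the same pair went together only weakly (Pearson r 0.25, Spearman rho 0.27, 6717 pairs).

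**Figure D1:**
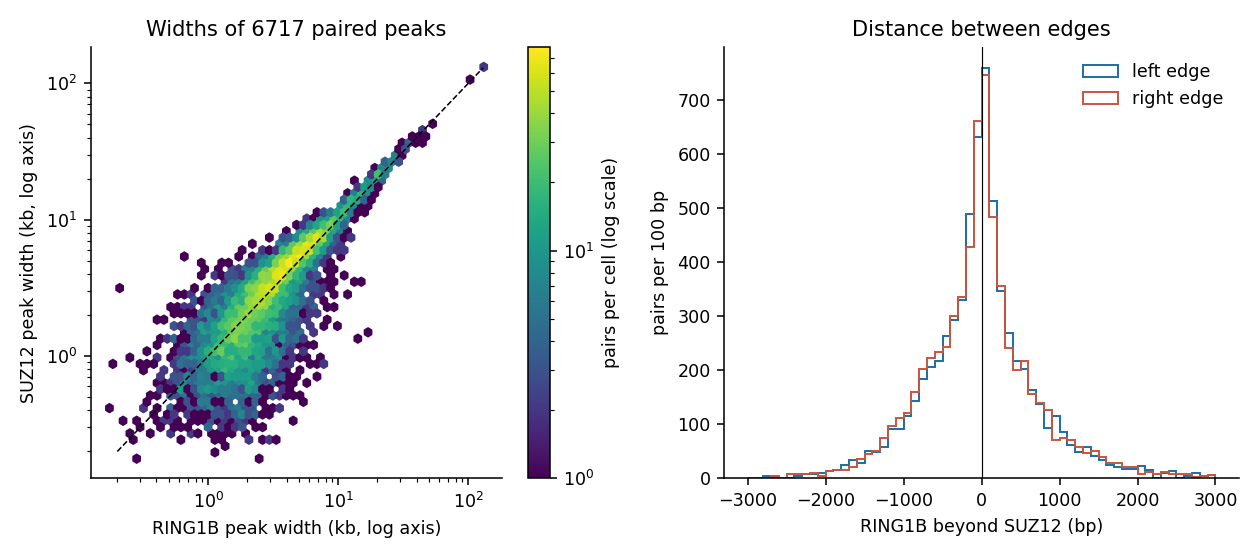
Left, width in kb of the SUZ12 peak (y axis, log) against that of the RING1B peak (x axis, log) for 6717 pairs, coloured by pairs per cell, with a dashed line at equality; right, number of pairs per 100 bp against the distance in bp by which RING1B reaches beyond SUZ12 at left and right edges, with distances past 3 kb not drawn. Widths lie along the line of equality and both edge distributions peak at 0, with medians of -2 bp on the left and -10 bp on the right.

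Over all pairs, which factor reached further went with the width of the domain. Pairs were ranked by the width of the union of both peaks into 5 classes of near equal number, 269 to 1898, 1899 to 2823, 2825 to 4013, 4014 to 6054, and 6055 bp or more. SUZ12 was the wider peak in 32.8% of pairs in the narrowest class and then in 39.6, 52.9, 66.4 and 67.1%. The share of a RING1B peak under SUZ12 had medians of 74.9, 78.6, 92.4, 99.1 and 99.5% from narrow to wide. SUZ12 thus lay inside a wider RING1B peak more often at narrow sites (42.5% of the narrowest class against 18.3% of the widest), and RING1B inside SUZ12 more often at wide sites (13.6% against 44.3%). In bp, RING1B exceeded SUZ12 by a median of 72 bp per edge in the narrowest class, whereas SUZ12 exceeded RING1B by 173 bp per edge in the widest. The difference in width (SUZ12 minus RING1B) was higher in the widest than in the narrowest class on 19 of 19 autosomes. A rise of SUZ12 with width was not seen in pairs without a PCGF2 peak from the second class to the widest, given further on. The RING1B and SUZ12 lists passed through different filters and hold no depth, and the part of filters, antibodies and depth in these differences was not tested.

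**Figure D2:**
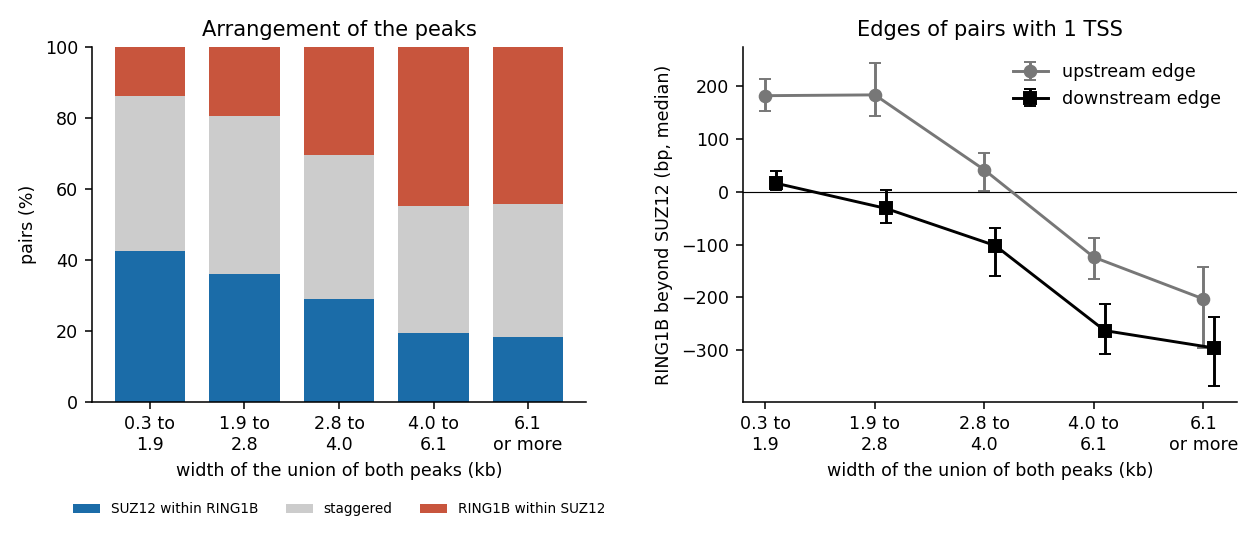
Left, percent of pairs in which SUZ12 lies within RING1B, peaks are staggered or RING1B lies within SUZ12, by width of the union in kb; right, median distance in bp by which RING1B reaches beyond SUZ12 at the upstream and downstream edge of pairs with 1 TSS, with 95% intervals of the median. Containment moves from SUZ12 within RING1B (42.5% to 18.3%) to RING1B within SUZ12 (13.6% to 44.3%), and the upstream edge stays above the downstream edge in all 5 classes.

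To ask whether boundaries were placed with respect to transcription, pairs were oriented by the strand of the TSS where exactly 1 TSS position of curated RefSeq transcripts lay in the union. This held for 3845 pairs, while 1609 pairs held no TSS and 1263 held several. SUZ12 was shifted into the gene relative to RING1B. Its midpoint lay downstream of the RING1B midpoint in 2343 of 3845 pairs (60.9%, 59.4 to 62.5%) and upstream in 1500, with a median shift of 97.5 bp (83 to 111). The shift was seen on either strand, with an unoriented median of 104 bp for 1870 genes on the plus strand and -92 bp for 1975 on the minus strand. Pairs without a TSS had an unoriented median of 3 bp (-9 to 20.5). Shifts on opposite strands cancel in an unoriented median, so that this value cannot show whether pairs without a TSS were shifted. Staggered pairs with SUZ12 downstream numbered 1060 (27.6%), against 494 (12.8%) with SUZ12 upstream.

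In the medians over all oriented pairs, the edges differed in opposite directions, and the shift was small beside the fragment size. Within the narrowest class the medians favoured RING1B at both edges, and within the widest SUZ12 at both, given further on. At the upstream edge RING1B reached a median of 36 bp further (22 to 48), and at the downstream edge SUZ12 reached 102 bp further (85 to 120). The downstream value had this direction on 19 of 19 autosomes and the upstream value on 15. The upstream value changed sign where the overlap had to take up at least 50% of each peak (-5 bp), where peaks under 1 kb were left out (-14.5 bp) and where the TSS had to lie under both factors (-45 bp). The shift of midpoints lay downstream on all 19 autosomes, between 27.5 bp on chromosome 8 and 176.5 bp on chromosome 11. On the X chromosome, with 81 oriented pairs, 51.9% had the SUZ12 midpoint downstream (41.1 to 62.4%) and the median was 16.5 bp (-58 to 95).

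The shift was largest in the second narrowest class and smallest in the widest, where its interval included 0. From narrow to wide, the SUZ12 midpoint was downstream in 69.5, 69.7, 61.2, 55 and 51% of oriented pairs, the last with an interval of 47.5 to 54.5%. The median shifts were 86.5, 180, 105, 58.5 and 14.5 bp (-27 to 64.5 in the widest class), and the narrowest class exceeded the widest on 15 of 19 autosomes. At the upstream edge, RING1B reached 182 bp further in the narrowest class and SUZ12 reached 203 bp further in the widest. At the downstream edge the values were 16 bp in favour of RING1B and 296 bp in favour of SUZ12. Over all oriented pairs both edges thus moved in favour of SUZ12 with width, and did so between the extreme classes on 19 of 19 autosomes, with the upstream edge starting from a larger lead of RING1B.

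The TSS itself was left out of SUZ12 far more often than out of RING1B. It lay under both factors in 3063 of 3845 pairs (79.7%), under RING1B alone in 751 (19.5%, 18.3 to 20.8%) and under SUZ12 alone in 31 (0.806%). SUZ12 began downstream of the TSS in 655 pairs (17%), whereas RING1B did so in 25 (0.650%). Over all oriented pairs this was more frequent in narrow domains, with the TSS under RING1B alone in 45.6% of the narrowest class and then in 33.9, 14.4, 6.33 and 2.20%, though wide pairs without PCGF2 kept a higher share, given further on. In the narrowest class RING1B reached a median of 355 bp upstream of the TSS and SUZ12 33 bp (7 to 60), while both reached about as far downstream (872 and 868 bp). In the widest class RING1B reached 2874 bp upstream and SUZ12 3265 bp, and downstream they reached 4047 and 4395 bp.

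**Figure D3:**
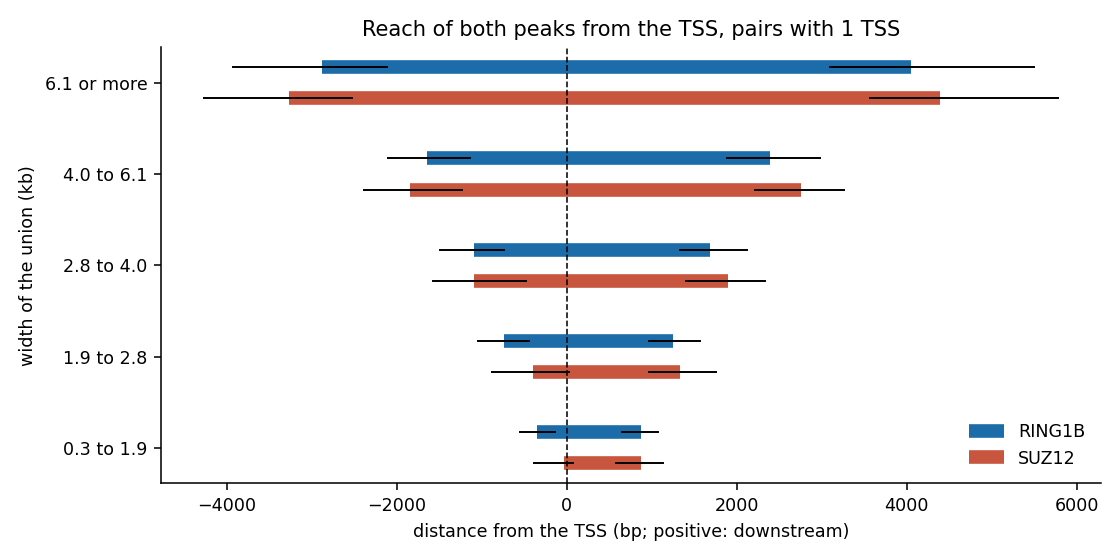
Median reach in bp of RING1B (blue) and SUZ12 (red) peaks upstream (negative) and downstream (positive) of the TSS for pairs with 1 TSS, by width of the union in kb, with lines for the interquartile range of each edge. In the narrowest class the SUZ12 bar starts at the TSS (33 bp upstream) while RING1B starts 355 bp upstream, and in the widest class SUZ12 reaches further on both sides.

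Both domains leaned into the gene body. RING1B reached further downstream than upstream of the TSS in 77.0% of oriented pairs and SUZ12 in 77.9%. The downstream edge of RING1B fell in an intron in 83.8%, in an exon in 8.87% and past the end of the gene in 7.13%, and that of SUZ12 in 81.8, 8.87 and 6.84%. At the upstream side, the SUZ12 edge fell within an exon in 14% and within an intron in 3.17%. The whole gene lay within the union in 287 pairs (7.46%), of which 55.1% had the SUZ12 midpoint downstream (49.3 to 60.7%), against 61.4% of the other 3558.

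The boundaries differed in sequence. CpG observed/expected, the number of CpG dinucleotides relative to that expected from the C and G content, had a median of 0.537 in sequence under both factors, 0.379 in stretches of at least 200 bp under RING1B alone (3317 pairs) and 0.203 in such stretches under SUZ12 alone (3634 pairs). Sequence of the same width 100 kb to the right had a median of 0.195, so that SUZ12-only sequence was close to it. Within pairs, shared sequence exceeded RING1B-only sequence by a median of 0.174 (0.164 to 0.184), in 2566 of 3317 pairs (77.4%), and SUZ12-only sequence by 0.310 (0.303 to 0.317), in 3543 of 3634 (97.5%). In the 946 pairs with both kinds of stretch, RING1B-only sequence exceeded SUZ12-only sequence by 0.15 (0.127 to 0.17), in 712 pairs (75.3%), and its median was the higher on 19 of 19 autosomes. The printed windows of Fgf18, Foxp4 and Cdkn1b illustrate this order but add no weight to it, since those pairs were picked by nearness to these medians. Their shared windows, next to the TSS, had 1.05, 1.05 and 1.10. The whole shared sequence of the same pairs had 0.589, 0.589 and 0.563. At Foxp4 the RING1B-only window had 0.861, against 0.389 for all RING1B-only sequence of the pair.

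The CpG content of RING1B-only sequence depended on whether it held the TSS. Upstream stretches had a median of 0.453 (1350 pairs) and downstream stretches 0.330 (882 pairs). Those upstream stretches that contained the TSS had 0.706 (557 pairs) and those that did not had 0.302 (793 pairs), whereas the downstream values were 0.730 (95 pairs) and 0.297 (787 pairs). Away from the TSS, the sides therefore had nearly the same CpG content. SUZ12-only stretches were low on both sides, with 0.191 upstream (1205 pairs) and 0.205 downstream (1636 pairs).

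CpG content in 100 bp windows around the edges was pooled over the 3845 oriented pairs. In this pooled profile, the upstream edge of RING1B lay at the foot of the CpG-rich region and that of SUZ12 inside it. The profile was not split by width or by the place of the TSS. SUZ12 began downstream of the TSS in 43.6% of the narrowest class and 1.81% of the widest. The window centred 50 bp outside the upstream edge had a CpG observed/expected of 0.281 for RING1B and 0.509 for SUZ12. Outside the SUZ12 edge the value was still 0.386 at 250 bp and 0.309 at 450 bp, while outside the RING1B edge it was 0.220 at 250 bp. The downstream edges differed less, with 0.297 and 0.337 in the window centred 50 bp inside the RING1B and SUZ12 edge, and 0.243 and 0.291 at 150 bp outside.

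**Figure D4:**
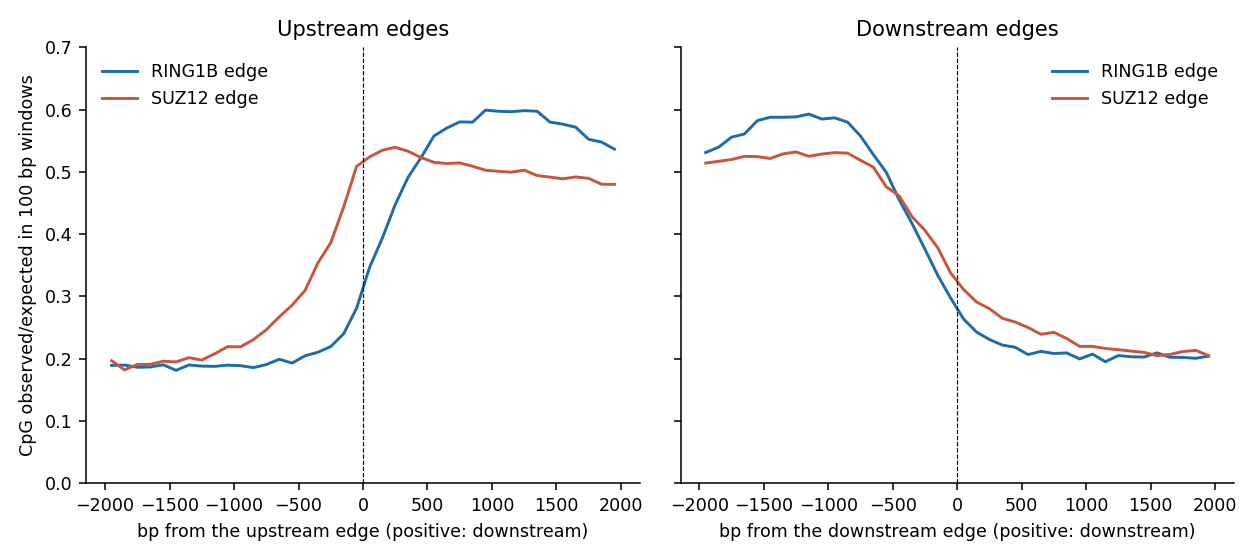
CpG observed/expected in 100 bp windows (y axis) against distance in bp from the upstream (left) or downstream (right) edge of RING1B (blue) and SUZ12 (red) peaks in 3845 pairs with 1 TSS, with positive distances downstream. With pairs of all widths pooled, the SUZ12 line is at 0.509 and the RING1B line at 0.281 just outside the upstream edge. The lines lie close together at the downstream edge.

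PCGF2, the canonical PRC1 subunit, overlapped 3357 of 6717 pairs (50.0%) and SUZ12 was the wider peak in 68.4% of these against 35.1% of the other 3360. Its presence went with width, from 4.23% of the narrowest class through 18.9, 50.6 and 80.5% to 95.7% of the widest. Pairs within the middle class of union width were therefore compared, of which 680 had a PCGF2 peak and 663 did not. Their median union widths were 3480 and 3270 bp. The union is built from both peaks, so that its class does not hold the width of either peak fixed. RING1B was covered by SUZ12 over a median of 97.4% with PCGF2 (96.2 to 98.3%) and 77.7% without (74.4 to 81.8%), and was the higher with PCGF2 on 19 of 19 autosomes. SUZ12 was the wider peak in 64.4% of pairs with PCGF2 and 41.2% without, with median differences of 253 bp in favour of SUZ12 and 306 bp in favour of RING1B, an order found on 17 of 19 autosomes. Pairs of the same union class thus differed in arrangement according to PCGF2, though the widths of their single peaks were not matched. The TSS lay under RING1B alone in 5.66% of oriented pairs with PCGF2 and in 25.3% without. The SUZ12 midpoint was downstream in 64.5% with PCGF2 (59.9 to 68.8%) and 57.1% without (51.9 to 62.2%), with intervals that overlap, and the order was opposite in the 1899 to 2823 bp class (66.7 and 70.5%).

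Coverage of RING1B was higher with PCGF2 in the other classes compared as well, and the narrowest was left out since few of its pairs had PCGF2. In the 1899 to 2823 bp class, RING1B was covered over 95.2% with PCGF2 (253 pairs) and 72.3% without (1088 pairs). In the 4014 to 6054 bp class, RING1B was covered over 100% with PCGF2 (1081 pairs) and 63.8% without (262 pairs), and in the widest class over 99.7% (1286 pairs) and 55.6% (58 pairs). In the widest class without PCGF2, RING1B exceeded SUZ12 by a median of 3402.5 bp (2232 to 4290). Those 58 pairs are thus wide RING1B domains with a smaller SUZ12 peak. Without PCGF2, SUZ12 was the wider peak in 36.3, 41.2, 34.4 and 6.90% from the second class to the widest, while with PCGF2 it was so in 53.8, 64.4, 74.2 and 69.8%. The TSS lay under RING1B alone in 39.3, 25.3, 29 and 30% without PCGF2, the last in 6 of 20 oriented pairs, and in 13.6, 5.66, 1.86 and 1.46% with it. The change towards SUZ12 with width seen over all pairs was thus not present in the pairs without PCGF2 from the second class to the widest. There the share with SUZ12 wider and the coverage of RING1B were lowest in the widest class. In 3290 pairs with a single PCGF2 peak, it lay inside RING1B in 94.3% and inside SUZ12 in 87.0%, and covered a median of 66.5% of the shared sequence. The PCGF2 list kept peaks found in every replicate, a rule that differs from that of the other lists, and the part of that rule was not tested.

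The widest pairs were clusters of homeobox genes and loci of developmental transcription factors, and in most of them the edges matched closely for their size. At the Hoxb cluster, whose homeodomain factors pattern the body axis, RING1B spanned 128589 bp (chr11:96248166-96376754) and SUZ12 128663 bp, with 99.4% of the union shared. At the Hoxc cluster RING1B spanned 106492 bp (chr15:102907430-103013921) and SUZ12 106904 bp, again with 99.4% shared. The pair at Nr2f2, an orphan nuclear receptor, had RING1B of 50684 bp and SUZ12 of 51777 bp (97.4% shared). Zic1 and Zic4, zinc finger genes of the dorsal neural tube that are transcribed from a common region, were an exception. Their RING1B peak spanned 48321 bp and their SUZ12 peak 41497 bp, so that RING1B extended 6695 bp beyond the right edge of SUZ12.

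The closest matches among pairs with a union of 5 kb or more were also at developmental genes and a channel gene. Pax3, a paired-box factor of neural crest and muscle, had edges 6 and 71 bp apart over 36950 bp (99.8% of the union shared). Tlx3, a homeodomain factor of sensory neurons, had edges 29 bp apart upstream and 18 bp apart downstream over 15290 bp (99.7% shared). Foxf2, a forkhead factor, had 70 bp upstream and 9 bp downstream over 20692 bp (99.6% shared). Rfx4 and Kcns1, which encodes a modulatory subunit of potassium channels, completed this set with 99.7% shared each. At these sites the boundaries differed by less than the sheared fragment size at every edge.

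The longest stretch of RING1B beyond SUZ12 was at Kdm6b, which encodes a demethylase of H3K27. RING1B spanned 16118 bp (chr11:69405711-69421828) and SUZ12 1468 bp (chr11:69409779-69411246), and all of SUZ12 lay inside RING1B. RING1B extended 10582 bp further upstream and 4068 bp further downstream, and SUZ12 began 4948 bp downstream of the TSS. This pair also had the largest downstream offset of the SUZ12 midpoint, at 3257 bp, followed by 2586.5 bp at Gm12409 and 2381.5 bp at Samd14. Long RING1B-only stretches were further seen at the pair holding Gse1, with 8900 bp beyond the left edge, at the pair holding Car11 and the circadian transcription factor gene Dbp, with 7433 bp beyond the right edge, and at a pair on chromosome 11 without a curated TSS, with 10286 bp.

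SUZ12-only stretches were shorter at their longest. SUZ12 extended 4315 bp beyond RING1B at the left edge of the pair holding Aloxe3 and Hes7, an oscillating repressor of somite formation, while RING1B extended 4144 bp beyond SUZ12 at the right edge, which makes it a staggered pair with 49.0% of the union shared. At Pou3f3, a POU factor of brain and kidney, RING1B lay inside SUZ12, which extended 4160 bp beyond it on the right. At Samd14 and at Grin2c, a subunit of the NMDA receptor, SUZ12 extended 4155 and 3526 bp further into the gene. These were downstream extensions. Against the general direction, the SUZ12 midpoint was furthest upstream at Col2a1, the collagen gene of cartilage, by 3047.5 bp, at Cuedc1 by 2363 bp and at Socs3, an inhibitor of cytokine signalling, by 2247 bp. At Socs3 SUZ12 was a peak of 1611 bp inside a RING1B peak of 9939 bp.

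A list of 34 developmental regulators served as a reference, and 17 that were the only gene with a TSS in a pair are given here. At 9 of them RING1B lay inside SUZ12, at 5 the peaks were staggered and at 3 SUZ12 lay inside RING1B. All 17 are in the widest class, where these arrangements made up 44.3, 37.4 and 18.3% of all pairs, so that the counts do not set these genes apart. Of these 17, the edges matched best at Olig2, a factor of motor neurons and oligodendrocytes, where SUZ12 extended 265 bp further upstream and 77 bp further downstream (98.1% of the union shared). SUZ12 extended furthest beyond RING1B at Gata4, a factor of heart and endoderm, by 1999 bp upstream and 163 bp downstream. It extended on both sides also at Wnt3, a ligand of gastrulation, by 1535 and 1400 bp, and at Neurog2, a neurogenic factor, by 892 and 782 bp. RING1B instead extended on both sides at the cardiac regulators Nkx2-5, by 1873 bp upstream and 893 bp downstream, and Hand1, by 1451 and 656 bp, and at Cdx2, a factor of trophectoderm and hindgut, by 721 and 308 bp. Closely related genes were not alike, since at Neurog1 RING1B led by 25 bp upstream and SUZ12 by 974 bp downstream. Of the 12 that could be oriented, 5 had the SUZ12 midpoint downstream, beside 51% of all oriented pairs of the widest class.

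**Figure D5:**
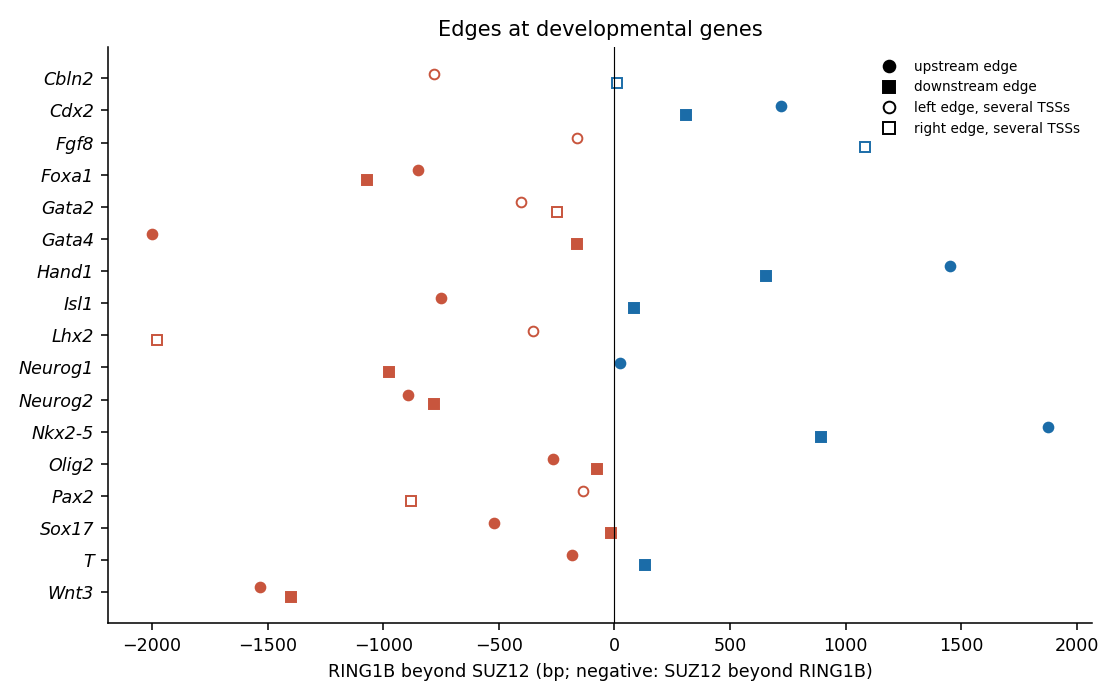
Distance in bp by which RING1B reaches beyond SUZ12 (negative, SUZ12 beyond RING1B) at each edge of 17 developmental genes, with circles for the upstream or left edge, squares for the downstream or right edge, and open symbols for genes with several TSSs. Edges run from SUZ12 leading by 1999 bp (Gata4) to RING1B leading by 1873 bp (Nkx2-5).

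Gene groups differed in the arrangement of the peaks, and are given beside all pairs, of which 51.8% had the wider peak in SUZ12 and 60.9% of oriented pairs had the SUZ12 midpoint downstream. Homeodomain transcription factors, in 107 pairs, had the widest unions (median 19676 bp), SUZ12 as the wider peak in 75.7% and the SUZ12 midpoint downstream in 34 of 66 oriented pairs (51.5%). In the widest class of all pairs, which holds this median, SUZ12 was wider in 67.1%. The SUZ12 midpoint was downstream in 51% of oriented pairs of that class, close to the share of the group. Ion channels and neurotransmitter receptors, in 170 pairs with a median union of 5021 bp, had SUZ12 wider in 78.2% and a median SUZ12 lead of 249 bp per edge. In the width class around this median, 4014 to 6054 bp, SUZ12 was wider in 66.4% of all pairs. A PCGF2 peak, with which SUZ12 was more often the wider, was present in 79.4% of the channel and receptor pairs. Other developmental transcription factors (116 pairs) and secreted signalling ligands (85 pairs) had SUZ12 wider in 62.9 and 61.2%. Their median unions (11067 and 6193 bp) also lie in the widest class, with its 67.1%. Genes of axon guidance and adhesion, in 82 pairs, had the SUZ12 midpoint downstream in 50 of 68 oriented pairs (73.5%), with a median shift of 147 bp. Their median union was 5374.5 bp, and the 4014 to 6054 bp class had the SUZ12 midpoint downstream in 55% of oriented pairs.

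Cell cycle, chromatin and housekeeping genes stood at the other end. Of the 286 genes listed, 51 were in pairs. Their 53 pairs had SUZ12 as the wider peak in 37.7% and a RING1B lead of 170 bp per edge. In the 27 that could be oriented, RING1B led by 340 bp at the upstream edge and SUZ12 by 43 bp at the downstream edge. A PCGF2 peak was present in 50.9% of these pairs, against 98.1% for homeodomain factors and 79.4% for channels and receptors. All pairs had 50.0%, but the median union of this group, 4291 bp, lies in the 4014 to 6054 bp class. In that class 80.5% of pairs had a PCGF2 peak and SUZ12 was wider in 66.4%. The group was thus below its width class in both, and the part of PCGF2 in its RING1B lead was not tested. The shared sequence of its pairs had a median CpG observed/expected of 0.644, against 0.453 for homeodomain factors. These groups hold few pairs, their lists were put together with earlier results known, and no test was made between them.

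Chromosome 11 stood apart from the other autosomes. Its 548 pairs had the lowest median coverage of RING1B by SUZ12 (84.8%, against up to 97.5% on chromosome 1), the longest RING1B lead per edge (71.5 bp), the widest unions (median 3857.5 bp) and the largest shift of midpoints. Several pairs named for long stretches under a single factor, among them Kdm6b, Samd14 and Grin2c, lie on it, as does Socs3, named for its midpoint offset. Without it, RING1B was covered over 93.4%, the SUZ12 midpoint was downstream in 60.5% of oriented pairs and the median shift was 93 bp.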

How the data were processed

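According to the paper's methods, reads were aligned by the authors with Bowtie 2 to a joint genome of mm10 and, for the spike-in of HEK293T chromatin, hg19. Unique alignments without duplicates went into broad peak calling with MACS2 against Input, and blacklisted regions were dropped. RING1B and SUZ12 peaks were called on merged replicates of each line and kept where both lines had them. RING1B peaks also had to lose signal when PRC1CKO cells received tamoxifen, and which coordinates were retained is not given in the sources used here. The RING1B data of PRC1CKO cells, which thus shaped the RING1B list, come from outside these samples and enter here only through it. PCGF2 peaks were those found in every replicate. The deposited lists (3 in all) give for each peak a start and an end in bp and no other value, so that depth is unknown and no error between samples could be given.

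Pairs, edges and midpoints were computed with Python 3.11.15, pandas 2.3.3, NumPy 2.4.6, networkx 3.6.1, pysam 0.24.0 and SciPy 1.17.1, and plots with matplotlib 3.10.9. TSSs were distinct 5′ ends of 44528 curated RefSeq transcripts (annotation release 108.20200622 of GRCm38.p6, 24952 genes, 30375 positions, without miRNA hairpins). Edge distances are positive where RING1B reaches further. CpG observed/expected is the CpG count times length over the product of C and G counts. Medians and shares have 95% order-statistic and Wilson intervals, and no p-value is given. Members, gene lists and naming rules were chosen with earlier results of these data known. Named pairs were the 5 widest, the 5 with the longest RING1B-only and SUZ12-only stretch, the 5 best matches of 5 kb or more, the 3 largest offsets each way, the 3 smallest overlaps and the reference genes alone in a pair. Of the pairs this rule selects, 3 are not reported here. Code was tested on simulated data. Alternatives changed the overlap, the peaks kept, their grouping or merging, the TSS, the sequence measure, the flank and chromosome 11.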

Additional observations from a re-analysis of the deposited data

How the results depend on the processing

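Of 62 values under alternative settings in the unit of the main value, 36 stayed within its interval, 23 moved out of it and 3 reversed. Signed values kept their direction in 37 of 40. The RING1B lead at the upstream edge (36 bp) reversed to -5 bp where 50% or more of each peak had to overlap, to -14.5 bp with peaks of at least 1 kb and to -45 bp with the TSS inside the overlap, and the cause was not tested. With 50% or more of each peak in the overlap, a rule applied before pairs were formed, so that pairs also came out of larger groups (5696 pairs), the coverage of RING1B was 96.1% and of SUZ12 90.3%, the RING1B extension per edge -42 bp, SUZ12 inside RING1B 22.9%, the midpoint distance 239 bp, the downstream edge -142 bp and the CpG difference of shared and RING1B-only sequence 0.199. With peaks of at least 1 kb (5636 pairs), the same quantities were 96.1%, 90.04%, -52 bp, 22.98%, 277 bp and -155 bp, and the SUZ12 midpoint was downstream in 59.2%. With no other peak within 5 kb (5469 pairs), coverage was 94.1% and 90.3%, the extension per edge -20 bp, SUZ12 inside RING1B 27.3% and the CpG difference of shared and SUZ12-only sequence 0.318. With the TSS inside the overlap, the SUZ12 midpoint was downstream in 57.3% and the downstream edge was -153 bp. With flanks of at least 500 bp, the CpG differences were 0.159 for RING1B-only and 0.303 for SUZ12-only sequence, and as GC percent, another unit that has no common interval with them, they were 4.55 and 7.92 points. Counting every connected group and merging peaks within 1 kb moved none of the values computed under them beyond the interval, nor did leaving out chromosome 11, an alternative chosen after seeing the data. No paired analysis was possible because replicates were pooled in the lists, so no replicate could be left out. The lists hold no score, so the authors' threshold could not be made stricter, and without depth the precision of an edge is unknown.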

Other observations

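The 254 larger groups, in which a peak of one factor overlapped several peaks of the other, were left out of the pairs and hold some of the widest Polycomb domains. In 155 of them 1 RING1B peak met several SUZ12 peaks, in 80 several RING1B peaks met 1 SUZ12 peak, and in 19 both were several. The Hoxd cluster was 1 SUZ12 and 2 RING1B peaks over 115896 bp, and the neural regulator Nr2f1 had 2 peaks of each factor over 52085 bp. At Tfap2a, a factor of neural crest, and at the ligand genes Wnt6 and Wnt10a, 1 RING1B peak spanned 3 SUZ12 peaks over 47427 and 46610 bp. The reverse, 2 RING1B peaks under 1 SUZ12 peak, was seen at Hmx1, Sox1, Nkx6-1 and Foxa2. The gaps that split the peaks were short, with medians of 751 bp between RING1B peaks (83 gaps, 6 to 6029 bp) and 851 bp between SUZ12 peaks (164 gaps, 430 to 6936 bp).

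The 281 SUZ12 peaks without RING1B were narrow, at a median of 848 bp, whereas those in pairs had 2797 bp. A TSS lay in 10.3% of them, against 62.7% of the SUZ12 peaks in pairs, 75.6% of the RING1B peaks in pairs and 48.6% of the RING1B peaks without SUZ12. Their median CpG observed/expected was 0.327. The RING1B list had a filter for loss of signal on tamoxifen that can leave out sites, and its part in these 281 peaks was not tested.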
